A study of Mus musculus with 14 samples.

Results

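The Krüppel-like factors are transcription factors that bind GC-rich and CACCC sequences, and 10 of their genes were read from the count table of mouse MLL-AF9 leukemia cells. The members Klf2, Klf3, Klf4, Klf6, Klf7, Klf9, Klf10, Klf11, Klf13 and Klf16 were taken by their symbols, 10 of 22155 genes in the table, which lists 17 Klf genes in all. They had been picked with the sgSgf29 against sgCtrl contrast of the same libraries known, so their levels and differences are given as a description with no test. Of the 10, 9 had enough counts to enter the fit, and Klf4 had a count of 0 in every library.

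Proteins of this family join a variable N-terminal part, which recruits activators or repressors, to a shared C-terminal stretch of zinc fingers that reads the DNA. They are close relatives of the Sp factors. By their partners, Klf3 and its nearest relatives bind the corepressor CtBP, while Klf2, Klf4, Klf6 and Klf7 act largely as activators through acetyltransferases. Klf9, Klf10, Klf11, Klf13 and Klf16 recruit the Sin3 corepressor with its histone deacetylases. In blood cells, Klf2 restrains the activation of lymphocytes and monocytes, Klf4 favours monocyte differentiation, and Klf6 takes part in macrophage activation.

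Both groups were Cas9-expressing mouse leukemia cells, raised from lineage-negative bone marrow cells with a retrovirus carrying the MLL-AF9 fusion, passed through irradiated recipient mice and cultured with SCF, IL-3 and other factors. The sgSgf29 group (n = 3) received by lentivirus an ipUSEPR vector with a guide RNA to Sgf29, which encodes a Tudor domain reader in the SAGA and ATAC acetyltransferase complexes. The sgCtrl group (n = 3) received the same vector with a control guide against nonessential sequence, and both groups were kept in puromycin at 2 µg/ml for 3 days. The comparison asks how the transcriptome of these cells changes when Sgf29 is targeted. The cells were a mixed population of transduced cells rather than a clone. The sources used here do not give the guide sequence of each library or say whether #1 to #3 were separate cultures, so p-values measure the spread between these libraries, which may be technical.

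Sgf29 itself had 12.6, 13.4 and 17.4 CPM in the sgSgf29 libraries, against 36.2, 40.4 and 40.4 CPM in the sgCtrl libraries, where CPM are counts scaled to a common library size, after TMM scaling for library composition. Its log2 fold change was -1.43 (edgeR's quasi-likelihood test, adjusted p = 2.88e-10), and its locus overlaps genes on the opposite strand. Reads assigned to genes numbered 16085601 to 20185751 per sgSgf29 library and 16003990 to 21786618 per sgCtrl library. Ribosomal protein genes took 12.3 to 13.9% of these reads in the sgSgf29 and 19.2 to 19.9% in the sgCtrl libraries. In a bulk sample, fewer cells of a type and less RNA per cell cannot be told apart.

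Of the 9 detected Krüppel-like members, 7 had a higher level in every sgSgf29 library than in every sgCtrl library, 0 had a lower level in every sgSgf29 library, and for 2, Klf11 and Klf16, the groups overlapped. Among all 11169 genes in the fit the groups lay apart for 72.1%, with 37.0% higher and 35.1% lower in the sgSgf29 libraries, and edgeR's test called 69.8%, with 35.4% higher and 34.4% lower at an adjusted p under 0.05. Since the members were picked on this contrast, nothing is read from their count beside these shares. The summed level of the 10 members was 389.1, 418.6 and 379.3 CPM in the sgSgf29 libraries, against 226.3, 209.1 and 225.3 CPM in the sgCtrl libraries. A difference of 2-fold or more was reached by 2 members, Klf6 and Klf3, and among all genes 10.2% were higher and 4.70% lower by that much. The median log2 fold change was 0.48 over the 9 members and 0.01 over all genes. With counts scaled to library size alone the median of all genes moved to 0.24, each member's log2 fold change moved up with it, and 5575 genes were called higher and 2385 lower, in place of 3957 and 3842.

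Klf6 had the largest difference of the family. This activator was first described as a core promoter element binding protein and responds early to growth and injury signals. It had 28.6, 33.4 and 30.9 CPM in the sgSgf29 libraries, against 7.18, 6.23 and 6.59 CPM in the sgCtrl libraries. The lowest sgSgf29 library was 3.98 times the highest sgCtrl library, so the groups lay far apart, and the libraries of each group lay close together. The means were 31.0 ± 2.42 CPM in sgSgf29 and 6.67 ± 0.481 CPM in sgCtrl cells (SD, n = 3 each). This gave 4.65-fold, or 2.22 on the log2 scale with a standard error of 0.11. The raw counts behind them were 488, 742 and 633 in the sgSgf29 and 113, 93 and 132 in the sgCtrl libraries. Of all genes in the fit, 295 (2.64%) had a larger log2 fold change than Klf6.

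Klf2, the lung Krüppel-like factor that keeps lymphocytes quiescent and is induced by blood flow in endothelium, had 67.6, 58.1 and 47.0 CPM in the sgSgf29 libraries, against 35.3, 26.8 and 25.4 CPM in the sgCtrl libraries. The groups did not overlap, with a ratio of 1.33 between the lowest sgSgf29 and the highest sgCtrl library, but each group was widely spread. The coefficient of variation was 17.9% in the sgSgf29 and 18.2% in the sgCtrl libraries, more than for Klf6, at 7.82% and 7.21%. The means were 57.6 ± 10.3 CPM in sgSgf29 and 29.2 ± 5.32 CPM in sgCtrl cells (SD, n = 3 each), or 0.98 as log2 fold change with a standard error of 0.12. Leaving out each library in turn gave 0.86 to 1.14.

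Klf7, an activator known best from the developing nervous system of mice, had 16.4, 20.6 and 17.3 CPM in the sgSgf29 libraries, against 13.2, 11.9 and 13.9 CPM in the sgCtrl libraries. All sgSgf29 libraries lay above all sgCtrl libraries, by a ratio of 1.18 at the closest pair, and the highest value came from sgSgf29 #2. The log2 fold change was 0.48 (standard error 0.11), between means of 18.1 ± 2.21 CPM in sgSgf29 and 13.0 ± 0.996 CPM in sgCtrl cells (SD, n = 3 each). Without sgSgf29 #2 it was 0.38. On the opposite strand the Klf7 locus overlaps the annotated genes Gm13748 and Gm26649, and the strand setting of the counting is not given in the sources used here.

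Klf4, the stem cell and monocyte factor of this activator branch, had a count of 0 in all 3 sgSgf29 and all 3 sgCtrl libraries. A count of 0 allows up to 3 counts, which is 0.135 to 0.176 CPM in the sgSgf29 libraries and 0.150 to 0.201 CPM in the sgCtrl libraries, for counting error only. No fold was computed, and Klf4 mRNA was not detectable at this depth in either group.

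The promoters of these activators are shown as the sequence that Krüppel-like and Sp proteins could themselves read. Each is the 250 bases before the RefSeq start on GRCm38.p6, written 5′ to 3′ on the gene's strand, with capitals where CCNCNCCC, a Krüppel-like motif, matches on either strand. Klf6 lies on the plus strand with its window at chr13:5861239-5861488, Klf2 on the plus strand at chr8:72318812-72319061, and Klf4 on the minus strand at chr4:55532476-55532725. The Klf6 window, of the gene with the largest difference, holds 2 matches, the Klf2 window 4 and the Klf4 window, of the undetected gene, 9. Here and below, overlapping matches were each counted, so a single stretch of capitals can hold several matches.
Klf6: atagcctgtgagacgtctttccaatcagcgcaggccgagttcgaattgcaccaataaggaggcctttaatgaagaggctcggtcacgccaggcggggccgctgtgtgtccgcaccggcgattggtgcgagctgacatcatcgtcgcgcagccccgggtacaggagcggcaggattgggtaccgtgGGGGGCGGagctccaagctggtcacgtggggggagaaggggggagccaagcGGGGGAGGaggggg
Klf2: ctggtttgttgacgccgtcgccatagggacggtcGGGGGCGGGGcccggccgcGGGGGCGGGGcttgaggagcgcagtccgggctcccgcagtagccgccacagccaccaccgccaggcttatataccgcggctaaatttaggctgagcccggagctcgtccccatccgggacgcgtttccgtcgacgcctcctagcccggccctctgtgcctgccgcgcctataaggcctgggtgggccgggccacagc
Klf4: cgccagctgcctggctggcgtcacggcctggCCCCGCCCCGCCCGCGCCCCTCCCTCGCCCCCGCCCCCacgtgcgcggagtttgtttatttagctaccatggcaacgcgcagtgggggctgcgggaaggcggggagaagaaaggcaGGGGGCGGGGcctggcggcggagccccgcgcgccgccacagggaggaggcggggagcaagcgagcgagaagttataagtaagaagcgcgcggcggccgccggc

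Klf3, the CtBP-binding repressor of the family, which restrains B cell and erythroid genes in mice, had 32.4, 35.7 and 33.4 CPM in the sgSgf29 libraries, against 16.8, 16.0 and 14.4 CPM in the sgCtrl libraries. The groups lay apart by a ratio of 1.93 at the closest pair, and the spread within each was small. Klf3 overlaps the annotated gene Gm20033 on the opposite strand, and the strand setting of the counting is not given in the sources used here. The means were 33.9 ± 1.71 CPM in sgSgf29 and 15.7 ± 1.19 CPM in sgCtrl cells (SD, n = 3 each). The difference was 2.16-fold, at 1.11 on the log2 scale with a standard error of 0.09, and 972 genes in the fit (8.70%) had a larger one. Leaving out each library in turn gave 1.05 to 1.16. The window before its start, on the plus strand at chr5:64803271-64803520, had the most matches of the 8 members with a promoter entry, 10, and is shown for that reason, with the same use of capitals.
Klf3: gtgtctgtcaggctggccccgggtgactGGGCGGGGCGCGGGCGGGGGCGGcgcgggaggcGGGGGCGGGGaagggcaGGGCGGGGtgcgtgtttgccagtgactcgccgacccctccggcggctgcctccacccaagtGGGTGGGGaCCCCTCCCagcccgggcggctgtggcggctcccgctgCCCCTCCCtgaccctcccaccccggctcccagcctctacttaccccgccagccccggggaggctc

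Klf13, a Sin3-binding factor that in human T cells drives the chemokine gene CCL5, was the member with the most reads in both groups. It had 182, 208 and 192 CPM in the sgSgf29 libraries, against 96.8, 96.1 and 107 CPM in the sgCtrl libraries. The groups did not overlap, with a ratio of 1.71 at the closest pair. The means were 194 ± 13.1 CPM in sgSgf29 and 99.9 ± 5.96 CPM in sgCtrl cells (SD, n = 3 each). The log2 fold change of 0.96 had the smallest standard error of the family, 0.07, on raw counts of 3114, 4624 and 3936 in the sgSgf29 and 1524, 1435 and 2137 in the sgCtrl libraries. Klf13 and Klf2 thus had nearly the same fold difference, on 16770 counts over all libraries for Klf13 and 4869 for Klf2. The Klf13 window, on the minus strand at chr7:63938916-63939165, carries 5 matches and is shown as the example of the Sin3-binding branch.
Klf13: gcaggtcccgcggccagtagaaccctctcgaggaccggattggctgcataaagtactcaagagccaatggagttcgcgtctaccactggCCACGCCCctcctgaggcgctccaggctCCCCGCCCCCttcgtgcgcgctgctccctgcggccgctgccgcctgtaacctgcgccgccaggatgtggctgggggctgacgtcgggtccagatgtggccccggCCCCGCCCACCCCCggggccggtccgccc

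Klf9, a Sin3-binding factor induced by glucocorticoids and thyroid hormone, had 7.68, 8.52 and 7.48 CPM in the sgSgf29 libraries, against 4.38, 5.69 and 7.04 CPM in the sgCtrl libraries. The groups just failed to overlap, with sgCtrl #3 below the lowest sgSgf29 library by a ratio of 1.06. The coefficient of variation was 7.02% in the sgSgf29 and 23.3% in the sgCtrl libraries. The log2 fold change was 0.46 (standard error 0.17), at 0.30 without sgCtrl #1 and 0.65 without sgCtrl #3.

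Klf10 and Klf11 are the TGF-beta inducible early genes, which recruit Sin3 and dampen growth. Klf10 had 31.1, 30.7 and 28.0 CPM in the sgSgf29 libraries, against 25.9, 26.0 and 22.9 CPM in the sgCtrl libraries. The groups did not overlap, but the closest pair differed by a ratio of 1.07, and the log2 fold change was 0.27 (standard error 0.09). Klf11 had 5.27, 5.41 and 5.47 CPM in the sgSgf29 libraries, against 5.40, 4.02 and 4.90 CPM in the sgCtrl libraries. Its groups overlapped through sgCtrl #1, and the log2 fold change of 0.17 was about as large as its standard error of 0.17. Without sgCtrl #2 the value for Klf11 was 0.07.

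Klf16, a Sin3-binding repressor described at dopamine receptor genes, was the only detected member with a lower mean in the sgSgf29 cells. It had 17.6, 17.6 and 17.4 CPM in the sgSgf29 libraries, against 21.4, 16.3 and 23.4 CPM in the sgCtrl libraries. The sgSgf29 values lay inside the sgCtrl range, close to one another, while sgCtrl #2 lay below and the other sgCtrl libraries above them. The log2 fold change was -0.22 (standard error 0.12), at -0.36 without sgCtrl #2 and at 0.01 with library size scaling alone, which turns its sign.

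**Figure D1:**
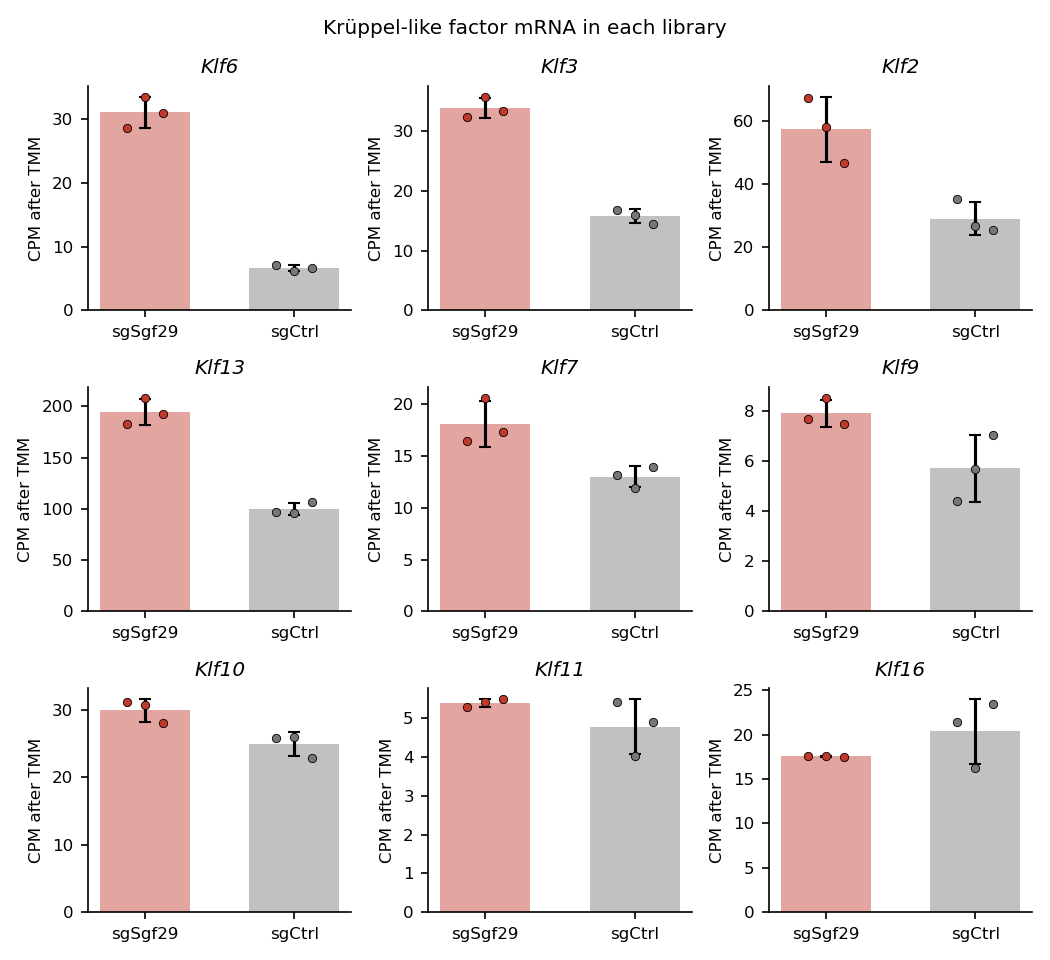
CPM after TMM scaling of each detected Krüppel-like member, with sgSgf29 libraries to the left of sgCtrl libraries, points for single libraries and bars for the mean with the SD of 3 libraries. The groups lie apart in 7 panels, from Klf6 at 4.65-fold to Klf10 at 1.20-fold, and overlap for Klf11 and Klf16.

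By branch, the 5 Sin3-binding members covered log2 fold changes between -0.22 for Klf16 and 0.96 for Klf13, and the 3 detected activators between 0.48 for Klf7 and 2.22 for Klf6. The members thus fell into Klf6 well above the rest, then Klf3, Klf2 and Klf13 between 0.96 and 1.11, then Klf7 and Klf9 between 0.46 and 0.48, and last Klf10, Klf11 and Klf16. Within the second set the differences in log2 fold change were close to the standard errors of 0.07 to 0.12. Leaving out each library in turn kept every detected member on its side of 0. The members lie on different chromosomes of GRCm38.p6, with Klf6 on the plus strand at chr13:5861489-5870393, Klf3 at chr5:64803521-64832901, Klf2 at chr8:72319062-72321654 and Klf13 on the minus strand at chr7:63886351-63938915. RefSeq gives these genes up to 4, 7, 3 and 2 exons in that order.

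**Figure D2:**
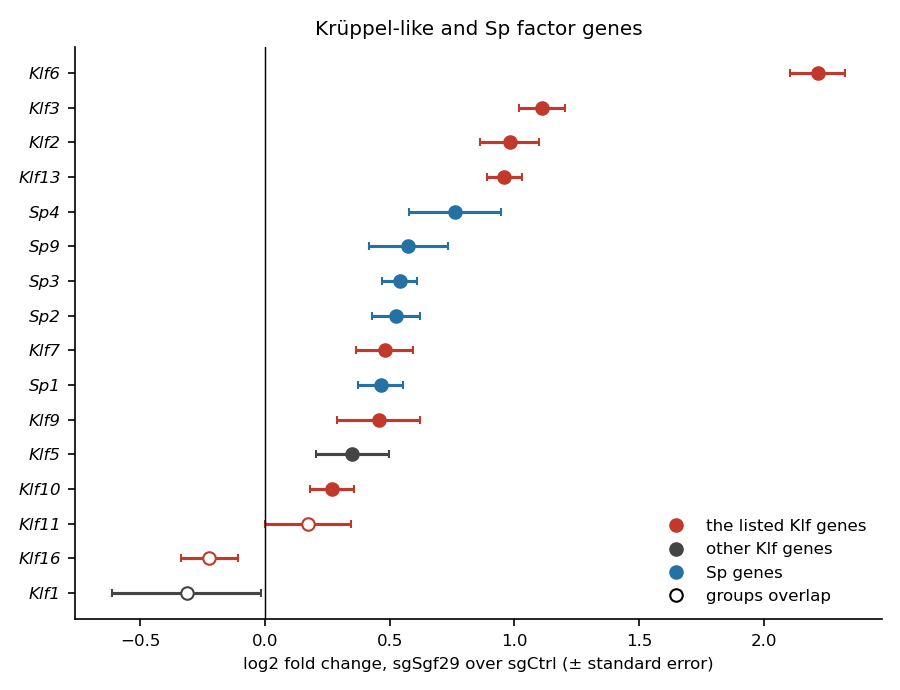
Log2 fold change, sgSgf29 over sgCtrl, of the Klf and Sp genes in the fit, with bars for the standard error and open points where the groups overlap. Klf6 stands at 2.22, and Klf3, Klf2 and Klf13 lie between 0.96 and 1.11. The other detected members lie between -0.22 and 0.48, and the Sp factors between 0.46 and 0.76.

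Levels of different genes were compared per kilobase of RefSeq exon. Klf2 and Klf13 led the family in both groups, with 31.7 ± 5.68 CPM per kb for Klf2 and 30.4 ± 2.05 CPM per kb for Klf13 in the sgSgf29 cells, against 16.1 ± 2.93 and 15.6 ± 0.932 CPM per kb in the sgCtrl cells (SD, n = 3 each). Their ranges overlapped in each group, so their order was not resolved. Klf7 came next in both groups by RefSeq length, at 13.5 ± 1.64 CPM per kb in sgSgf29 and 9.66 ± 0.741 CPM per kb in sgCtrl cells. This place rests on a short RefSeq model of 1.34 kb, and over the 8.13 kb of GENCODE exons the level of Klf7 was 2.23 CPM per kb in sgSgf29 and 1.6 CPM per kb in sgCtrl cells.

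The place of Klf6 in the order of levels differed between the groups. In the sgSgf29 cells Klf6, at 7.35 ± 0.575 CPM per kb, lay with Klf10 at 7.45 ± 0.423, Klf16 at 6.61 ± 0.0297 and Klf3 at 6.55 ± 0.331 CPM per kb. In this set the ranges of Klf10 and Klf6 overlapped, as did those of Klf6 and Klf3 and of Klf16 and Klf3. In the sgCtrl cells Klf6, at 1.58 ± 0.114 CPM per kb, lay below Klf16 at 7.68 ± 1.38, Klf10 at 6.20 ± 0.442 and Klf3 at 3.05 ± 0.230 CPM per kb. There its range overlapped that of Klf9 at 1.27 ± 0.297 CPM per kb, which in turn overlapped that of Klf11 at 1.20 ± 0.176 CPM per kb. Klf3 has a longer model in GENCODE, over which its level was 3.01 CPM per kb in sgSgf29 and 1.40 CPM per kb in sgCtrl cells. Klf9 and Klf11 were the lowest detected members in the sgSgf29 cells as well, at 1.76 ± 0.124 and 1.35 ± 0.0254 CPM per kb.

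**Figure D3:**
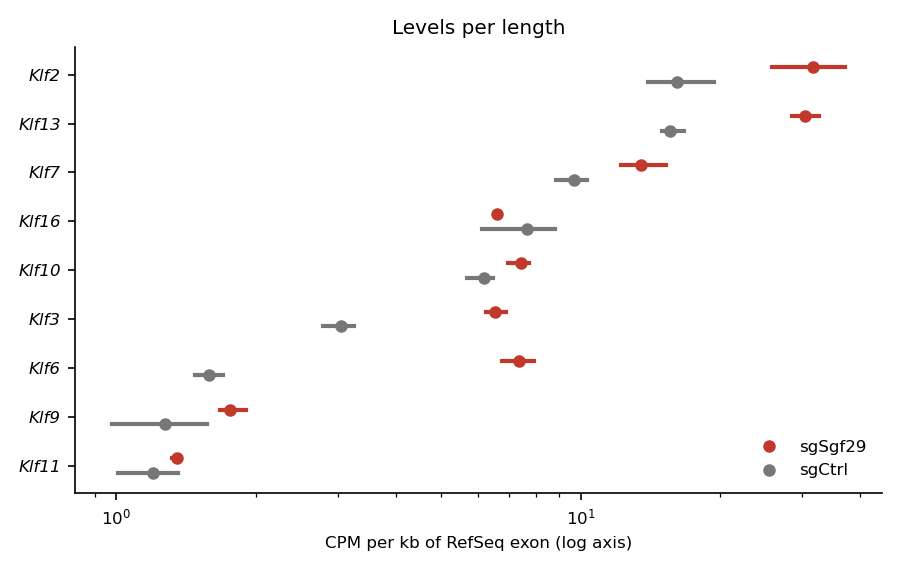
CPM per kilobase of RefSeq exon of the detected Krüppel-like members on a log axis, sgSgf29 above sgCtrl, with points for the mean and lines for the range of 3 libraries. Klf2 and Klf13 have the highest levels in both groups, and Klf6 lies beside Klf10 in sgSgf29 cells and beside Klf9 in sgCtrl cells.

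Of the 10 members, 8 matched an entry in the RefSeq promoter table, with Klf10 and Klf16 named only. The Krüppel-like motif CCNCNCCC was found, on either strand, in 7 of these 8 windows and in 45.9% of 32851 promoter windows of the same length, and the GC box GGGCGG in 7 of 8 and in 32.7%. The members' windows were also rich in G and C, at 59.2 to 78.4% against a median of 52.4% over all windows, and 16 of their 21 GC boxes overlapped a Krüppel-like match. Matches numbered 8 for Klf7 and 5 for Klf11, beside those given above, and 0 for Klf9, whose window also has no GC box. The Klf7 window, on the minus strand at chr1:64121390-64121639, lies inside the RefSeq locus of the gene at chr1:64029448-64122345. It thus precedes a start within that locus and not its outer end.

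Other motifs were less frequent in the members' windows. CCAAT was found in 4 of 8 (33.8% of all windows), with 4 copies before Klf6, and the E-box CACGTG in 3 of 8 (6.02%), before Klf4, Klf6 and Klf11. A MEF2 motif was found before Klf2 only, at position -118 from its start (2.92% of all windows). TATAAA (12.4%), the CRE TGACGTCA (1.55%), the AP-1 motif TGACTCA (4.46%), GAGGAAGT as a PU.1 motif (2.44%) and the CArG box (1.47%) were found in 0 of 8. A match describes the letters and not a bound site.

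**Figure D4:**
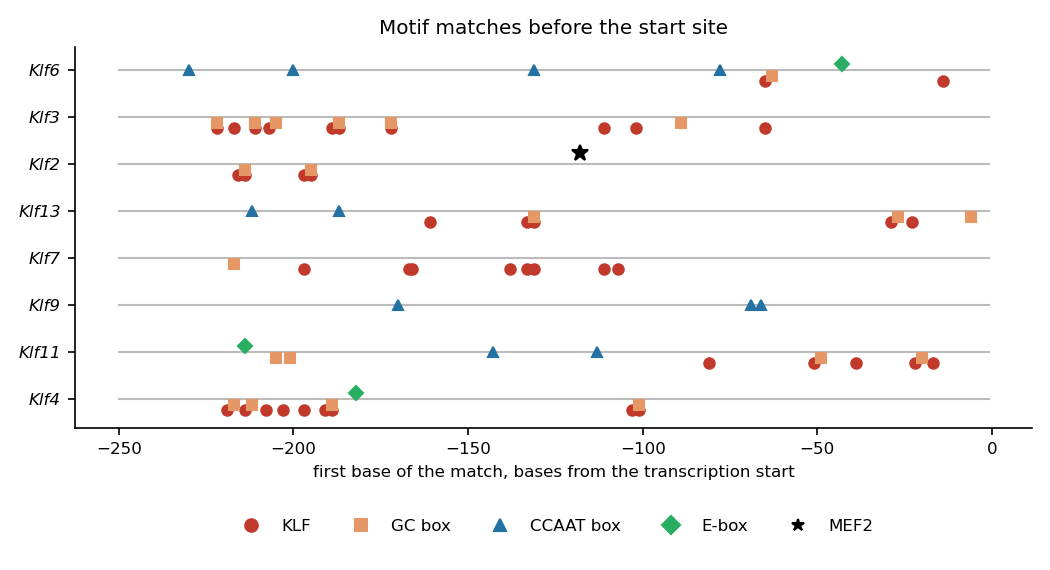
Positions of Krüppel-like, GC box, CCAAT, E-box and MEF2 matches in the 250 bases before the start of 8 members, in bases from the start. Klf3 has the most Krüppel-like matches, 10, and Klf9 has 0. The Klf7 window lies inside the RefSeq locus of Klf7.

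The other 7 Klf genes in the table were mostly undetected. Klf8, Klf12, Klf14, Klf15 and Klf17 had counts of 0 in all 6 libraries, so that beside Klf3 the other CtBP-binding genes, Klf8 and Klf12, were not detected. Klf5, an activator of proliferation in epithelium, had 7.79, 8.52 and 7.62 CPM in the sgSgf29 libraries, against 5.85, 6.90 and 6.10 CPM in the sgCtrl libraries, a log2 fold change of 0.35 (standard error 0.15). The groups did not overlap and the change passed edgeR's test (adjusted p = 0.0374) but not DESeq2 (adjusted p = 0.0792), nor edgeR without sgSgf29 #2 (adjusted p = 0.128), sgCtrl #1 (0.112) or sgCtrl #3 (0.0745). Klf1, the erythroid factor, had 1.35, 1.17 and 1.27 CPM in the sgSgf29 libraries, against 1.97, 1.47 and 1.30 CPM in the sgCtrl libraries, a log2 fold change of -0.32 that did not pass (adjusted p = 0.357).

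Among the Sp factors, which share the zinc finger design and the GC box with the Krüppel-like members, 5 of 9 were tested and all 5 rose, with a median log2 fold change of 0.54. By edgeR's test, 35.4% of all genes tested rose. Sp3 rose to 74.6 ± 5.0 CPM in sgSgf29 cells, against 51.3 ± 1.84 CPM in sgCtrl cells (SD, n = 3 each; log2 fold change 0.54, adjusted p = 7.7e-07). Sp1, a general activator at GC boxes, rose by 0.46 (adjusted p = 0.000113), Sp2 by 0.53 (adjusted p = 5.6e-05), Sp4, known from neurons, by 0.76 (adjusted p = 0.001) and Sp9 by 0.57 (adjusted p = 0.00301) on the log2 scale. Annotated neighbours overlap Sp2, Sp3 and Sp9, so part of their reads may be of those genes. Sp5 and Sp7 had counts of 0, and Sp6 and Sp8 were too low to test. Klf6, Klf3, Klf2 and Klf13 each had a larger log2 fold change than each of the 5 tested Sp factors. Klf10, Klf11 and Klf16 each had a smaller one, and Klf7 (0.48) and Klf9 (0.46) lay near Sp1. Since the members were picked on this contrast, no difference between the families is read from this order.

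The partners of the Krüppel-like proteins did not move one way. Of 11 cofactor genes tested, 5 rose and 3 fell, beside 35.4% and 34.4% of all genes tested. The median log2 fold change of the cofactor genes was 0.04. The mRNA of Kat2b, an acetyltransferase partner of the activators, rose to 34.8 CPM in sgSgf29 cells, against 18.6 CPM in sgCtrl cells (log2 fold change 0.91, adjusted p = 1.28e-08 from edgeR). The paper places Kat2b with Sgf29 in SAGA and ATAC, and by Western blot reports less Kat2b protein on Sgf29 depletion in MLL-AF9 cells. For mRNA, the paper states that KAT2A and KAT2B transcripts were not lost in its RNA-seq. It proposes that SGF29 affects their protein level without acting through transcription. The deacetylase gene Hdac1 rose by 0.49 (adjusted p = 2.37e-06 from edgeR). Ctbp2, a CtBP gene that overlaps Fgfr2 in the annotation, fell to 49.4 CPM in sgSgf29 cells, against 71.9 CPM in sgCtrl cells (log2 fold change -0.54, adjusted p = 4.53e-07), and Hdac2 had a log2 fold change of -0.53 (adjusted p = 2.06e-06). The other CtBP gene, Ctbp1, rose to 195 CPM in sgSgf29 cells, against 155 CPM in sgCtrl cells (log2 fold change 0.33, adjusted p = 0.000136 from edgeR). Sin3a and Sin3b, the scaffolds of the Klf9 to Klf16 branch, were at 0.02 and 0.04 and did not pass (adjusted p = 0.817 and 0.582). Under library size scaling both were called higher, Sin3a at 0.25 (adjusted p = 0.00232) and Sin3b at 0.27 (adjusted p = 0.00053), and Hdac3, at -0.16 (adjusted p = 0.0296), lost its call (0.07, adjusted p = 0.352), so that 7 cofactor genes rose and 2 fell. Hdac3 also lost its call under upper-quartile scaling (adjusted p = 0.0627) and without sgSgf29 #2 (0.109), sgSgf29 #3 (0.158), sgCtrl #1 (0.0874) or sgCtrl #2 (0.0667). Ctbp1, Sin3a, Sin3b and Hdac3 were chosen after their values were seen. Of 6 ubiquitin ligase genes linked to Klf proteins, 2 rose and 1 fell. Fbxo32 (log2 fold change 2.08, adjusted p = 3.51e-06) and Smurf1 (0.68, adjusted p = 8.18e-06) rose, while Fbxw7 was at -0.41 (adjusted p = 0.00287), with groups that overlapped and no call under library size scaling (adjusted p = 0.156). The level of Fbxo32 was low, at 3.11 CPM in sgSgf29 and 0.715 CPM in sgCtrl cells.

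Genes of the pathways known to induce Klf2, Klf9, Klf10 and Klf11 moved in both directions. In the MEK5-ERK5-MEF2 cascade, which induces Klf2 in endothelium, 5 of 9 tested genes rose and 1 fell. The median log2 fold change was 0.19, and over all genes tested 35.4% rose and 34.4% fell. The kinase gene Map3k3 rose to 63.2 CPM in sgSgf29 cells, against 24.8 CPM in sgCtrl cells (log2 fold change 1.36, adjusted p = 5.64e-11 from edgeR), and Mef2a rose by 0.89 (adjusted p = 1.11e-07). Of the 5, Hdac5, named after its values were seen, was at 0.17 (adjusted p = 0.0302) and had no call with DESeq2 (adjusted p = 0.0582) or without sgSgf29 #1 (0.0576), sgSgf29 #3 (0.0741) or sgCtrl #2 (0.121). Hdac7 was at -0.24 (adjusted p = 0.00604) and lost its call under library size scaling (adjusted p = 0.935). Map2k5 and Mapk7, which encode MEK5 and ERK5, were at 0.06 and -0.12 and did not pass edgeR's test (adjusted p = 0.493 and 0.29). Under library size scaling Map2k5 was called higher (0.29, adjusted p = 0.00269). Both kinase genes were chosen after their values were seen. In the TGF-beta pathway, which induces Klf10 and Klf11, 7 of 10 genes rose and 3 fell, with a median of 0.48. The receptor gene Tgfbr2 rose to 43.1 CPM in sgSgf29 cells, against 11.4 CPM in sgCtrl cells (log2 fold change 1.91, adjusted p = 8.01e-13), and the SMAD corepressor gene Skil rose by 1.25 (adjusted p = 6.99e-09). The corepressor gene Tgif1 fell by 1.47 (adjusted p = 1.69e-11) and the inhibitor gene Smad7 fell by 0.50 (adjusted p = 1.1e-05). Also lower was the ligand gene Tgfb1, at 278 CPM in sgSgf29 and 364 CPM in sgCtrl cells (log2 fold change -0.39, adjusted p = 3.3e-05 from edgeR). Tgfb1 was named after its values were seen.

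Of 8 genes of the glucocorticoid response, which includes Klf9, 5 rose and 2 fell, beside 35.4% and 34.4% of all genes tested. The median log2 fold change of the 8 was 0.45. Dusp1, a MAP kinase phosphatase gene that overlaps Ergic1, rose by 1.62 (adjusted p = 3.69e-10) and Zfp36, which encodes an mRNA decay factor, by 1.09 (adjusted p = 2.82e-10 from edgeR). Ddit4, an inhibitor of mTORC1, fell to 238 CPM in sgSgf29 cells, against 483 CPM in sgCtrl cells (log2 fold change -1.02, adjusted p = 6.8e-10), and Per1 was at -0.26 (adjusted p = 0.00146), a call lost under library size scaling (adjusted p = 0.744). Klf2, Klf6 and Klf10 can also respond as immediate early genes. Of 9 tested genes of that kind, 5 rose and 2 fell, and their summed level was 701 to 927 CPM in the sgSgf29 libraries against 817 to 916 CPM in the sgCtrl libraries. Nr4a1, an orphan nuclear receptor gene, rose by 1.82 (adjusted p = 1.37e-05) and Ier3 by 0.78 (adjusted p = 1.05e-07), while Jun fell by 1.27 (adjusted p = 3.42e-08) and Ier2 fell by 0.99 (adjusted p = 6.86e-08) on the log2 scale. The level of Nr4a1 was low, at 3.97 CPM in sgSgf29 and 1.16 CPM in sgCtrl cells. Jund, named after its values were seen, was at 0.27 (adjusted p = 0.0055) and had no call without sgCtrl #2 (adjusted p = 0.0502).

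Of 12 genes described as targets of Krüppel-like factors, 10 were tested, 6 rose and 3 fell, beside 35.4% and 34.4% of all genes tested. The median log2 fold change of the 10 was 1.01. Itgb7, an integrin gene of this list, rose to 119.9 CPM in sgSgf29 cells, against 15.7 CPM in sgCtrl cells (log2 fold change 2.92, adjusted p = 2.03e-14 from edgeR). Nos3, the endothelial nitric oxide synthase gene induced by Klf2, fell by 0.79 (adjusted p = 0.000571) at a low level of 4.96 CPM in sgSgf29 and 8.64 CPM in sgCtrl cells, and overlaps Atg9b. Smad7, counted here too as a target of Klf10, fell as given above. The third gene called lower, Cdkn1a, a cell cycle inhibitor gene named after its values were seen, was at -0.24 (adjusted p = 0.00809) and had no call under library size scaling (-0.01, adjusted p = 0.944) or without sgSgf29 #2 (adjusted p = 0.061).

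**Figure D5:**
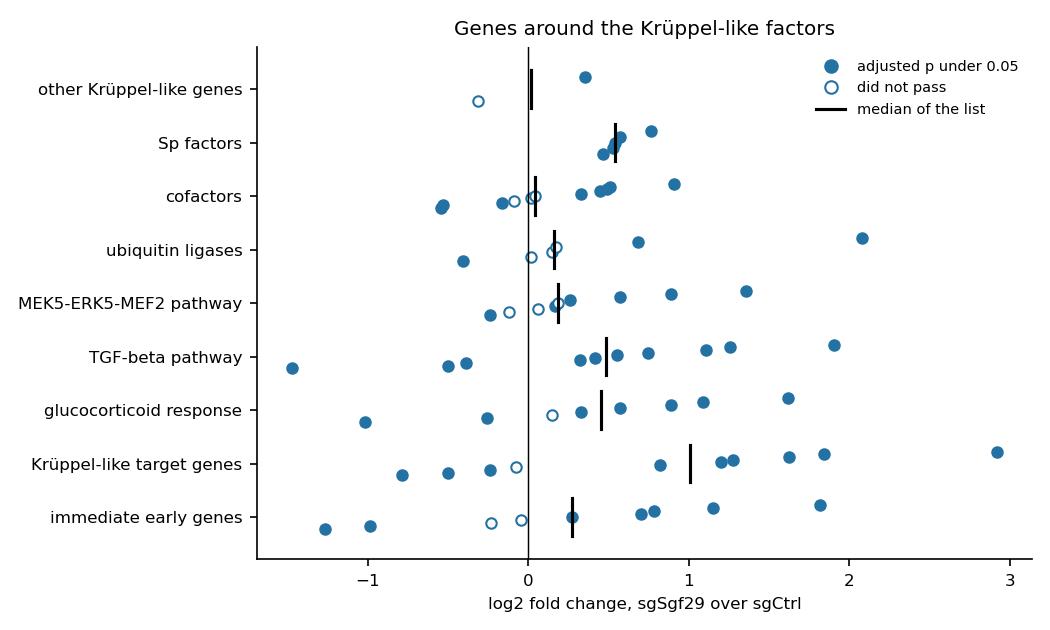
Log2 fold change, sgSgf29 over sgCtrl, of each tested gene in lists around the Krüppel-like factors, filled where the adjusted p is under 0.05, with a line at the list's median. All lists but that of the Sp factors have genes on both sides of 0.

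Most tested markers of myeloid maturation were higher in the sgSgf29 cells, where 35.4% of all genes tested rose and 34.4% fell. Of 9 tested monocyte and macrophage genes, 7 rose and 1 fell, with a summed level of 2777 to 2923 CPM in the sgSgf29 libraries against 2161 to 2304 CPM in the sgCtrl libraries, and with Mrc1 at 0. Of 10 neutrophil genes, 8 rose and 2 fell, with sums of 25515 to 27042 CPM in the sgSgf29 and 8735 to 9479 CPM in the sgCtrl libraries. Ccr2 (log2 fold change 3.17, adjusted p = 2.7e-16 from edgeR), Adgre1 (4.39, adjusted p = 1.83e-15), Cxcr2 (2.40, adjusted p = 5.54e-16) and Cd177 (1.62, adjusted p = 1.31e-14) rose, while Ly6c2 (-0.53, adjusted p = 2.02e-06), Ltf (-0.86, adjusted p = 9.75e-10) and Camp (-0.16, adjusted p = 0.0389) were lower, the last with no call under library size (adjusted p = 0.328) or upper-quartile scaling (0.0762), with no filter on low counts (0.06), or without sgSgf29 #2 (0.139), sgSgf29 #3 (0.0967), sgCtrl #1 (0.0886) or sgCtrl #2 (0.146). The part of these markers in the differences of Klf6, Klf3, Klf2 and Klf13 was not tested.

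Of the 8 genes that define the leukemia cells, all were detected, 4 rose and 3 fell, beside 35.4% and 34.4% of all genes tested. Itgam rose to 532 CPM in sgSgf29 cells, against 137 CPM in sgCtrl cells (log2 fold change 1.96, adjusted p = 3.81e-15 from edgeR) and Ptprc by 0.65 (adjusted p = 3.79e-08), while Mpo fell by 1.83 (adjusted p = 1.94e-09) and Hoxa9 fell by 1.37 (adjusted p = 7.23e-13) on the log2 scale. Markers of other cell types were low. Erythroid genes (highest Gata1) summed to 0.645 to 1.71 CPM in sgSgf29 and 0.134 to 0.350 CPM in sgCtrl libraries, and B cell genes (highest Cd79b) to 0.352 to 0.496 CPM in sgSgf29 and 0.450 to 1.27 CPM in sgCtrl libraries. Megakaryocyte genes (highest Gp9) summed to 7.13 to 9.33 CPM in sgSgf29 and 8.57 to 9.85 CPM in sgCtrl libraries, and mast cell and basophil genes (highest Mcpt8) to 4.10 to 4.89 CPM in sgSgf29 and 10.98 to 11.4 CPM in sgCtrl libraries. T and NK cell genes (highest Nkg7) summed to 3.52 to 5.04 CPM in sgSgf29 and 8.44 to 9.79 CPM in sgCtrl libraries, and fibroblast and endothelial genes (highest Pecam1) to 6.56 to 8.26 CPM in sgSgf29 and 3.50 to 4.15 CPM in sgCtrl libraries. The globin genes, Cpa3, Fcer1a, Tpsb2, Cd3e, Cd8a, Cd4, Col3a1, Dcn and Cdh5 had counts of 0.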

How the data were processed

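Gene counts were deposited by the authors in a single table of 6 RNA-seq libraries. The study's methods name STAR and featureCounts, the submitters' processing notes name STAR 2.6.0a, edgeR and GRCm38, and the table carries 5 bookkeeping entries of the htseq-count kind (25.8 to 31.4% of each library), which were left out. The annotation and the strand setting were not given in the sources used here. The other 8 samples of the series, from ChIP-seq, were not analysed here.

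The 11169 genes passing filterByExpr (minimum count 10, minimum total 15) were fitted with edgeR 4.0.16 in R 4.3.3, with TMM factors and a quasi-likelihood test with Benjamini-Hochberg adjustment over all genes tested, called at an adjusted p under 0.05, and the script was tested on simulated data. A standard error is that of the log2 fold change in this fit, and the biological coefficient of variation was 6.61%. No library pair within a group differed by less than sampling noise (chi-square over degrees of freedom, 4.61 to 16). CPM and SD are after TMM scaling. Levels per kb used RefSeq exon lengths. RefSeq (GRCm38.p6) gave promoter windows and loci, and GENCODE the overlaps between genes.

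The members and all lists were chosen with earlier results of these data known. Named were the members, the other Klf and the Sp genes, from each other list the 2 called genes with the smallest adjusted p in each direction, Sgf29, and the most abundant marker of each other cell type. Alternatives were DESeq2 1.42.0, voom in limma 3.58.1, scaling by RLE, by upper quartile, by library size alone or by TMM with ribosomal protein genes left out, other filters, a replicate block and each library left out. Protein sequences were planned but not used here, and some genes that the rule names are not reported here.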

Additional observations from a re-analysis of the deposited data

How the results depend on the processing

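Across 15 alternatives, 340 values of the Krüppel-like members, the gene counts and the lists were recomputed, of which 331 kept their direction and stayed within the replicate spread or, for counts, within 1.5 times the value reported, 8 moved and 1 reversed, all 9 under scaling by library size alone. There the log2 fold change was 2.45 for Klf6, 1.34 for Klf3, 1.19 for Klf13, 0.71 for Klf7, 0.50 for Klf10, 0.40 for Klf11 and 0.01 for Klf16, which reversed. The genes called lower were then 2385 against 3842 (30% of calls against 49.3%), the genes called higher 5575 against 3957, and the ubiquitin ligases called 5 against 3. The median of all genes moved to 0.24 from 0.01 by construction of the scaling. Members whose groups lay apart in either direction numbered 7, and 8 under library size alone and without sgSgf29 #1, sgCtrl #1 or sgCtrl #2. Without sgCtrl #2 the added member was Klf16, which was lower. Its sgSgf29 libraries, at 17.4 to 17.6 CPM with all libraries scaled together, lay below sgCtrl #1 and #3 at 21.4 and 23.4 CPM.

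Genes called were 7092 to 7776 with each library left out, 7449 with DESeq2, 7788 with limma-voom and 8063 with no filter. Libraries with the same number correlated at 0.026, 0.084 and 0.125 in their deviations from the group means, and sgSgf29 #1 correlated best with sgCtrl #2, so the numbers were not taken to pair the libraries. The replicate block called 7996 genes against 7799. The depth limits Klf4, Klf9 and Klf11 most, with 0, 768 and 565 counts over all 6 libraries.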
